A study of Mus musculus with 18 samples.

Results

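Cholesterol and fatty acid synthesis genes were examined in mouse CD4 T cells by RNA sequencing. The set held 32 genes, chosen by name as enzymes, regulators and transporters of the pathway, and all 32 were among the 55536 identifiers of the count table and among the 15204 genes with enough counts to be tested. The rule used names and no expression value, but the set was proposed with earlier results of these data known. The data comprised 18 libraries in 6 groups of 3, all from C57BL/6 mice carrying OT-II (written OTII), a transgenic T cell receptor against an ovalbumin peptide. Peripheral naive CD4 T cells, taken from spleen and lymph nodes, came from OTII mice, from W131AOTII mice and, without Cbl-b, from Cbl-b-/- OTII mice as well as from Cbl-b-/-W131AOTII mice, and CD4 single-positive thymocytes came from OTII and W131AOTII mice. W131AOTII cells carry the W131A substitution in the kinase ZAP-70 and are the series' genetically encoded model of anergy, a state of lasting unresponsiveness, while Cbl-b-/- cells lack an E3 ubiquitin ligase that holds back T cell receptor signalling. All sorted cells were Va2 positive and lacked CD25, and peripheral cells were in addition gated on low CD44 with CD62L. Ages were not among the sources used here. The question of the series was which pathways lie under Cbl-b control in anergy.

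Cholesterol is built from acetyl-CoA through mevalonate and farnesyl diphosphate to squalene, which is oxidised, closed into lanosterol and trimmed to cholesterol, whereas fatty acids are built from acetyl-CoA by carboxylation, chain extension and desaturation. The SREBP transcription factors, encoded by Srebf1 and Srebf2, drive both routes: SCAP escorts them to the Golgi for cleavage when sterols are low, and INSIG proteins hold SCAP in the endoplasmic reticulum when sterols are high. Naive T cells make little of either lipid, and activated T cells that prepare to divide induce both routes.

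Total counts per library ran from 19708218 to 36218772. The libraries labelled Cbl-b-/- had Cblb, the targeted gene, at 51.0 to 111 CPM (a gene's count scaled to a common library size) against 122 to 177 in the other peripheral libraries, so its transcript was lower but not absent. The log2 fold change of Cblb was -0.89 in OTII (adjusted p = 0.0060, edgeR quasi-likelihood test) and -0.76 in W131AOTII (adjusted p = 0.014). The W131A substitution cannot be checked from gene counts. Cd4, the defining marker of the labelled cells, was at 938 to 1678 CPM in every library, while of the CD8 markers Cd8a was at 3.28 to 27.9 CPM and Cd8b1 at 109.8 to 198 CPM. Libraries that differed from the others of their group included 3 that were left out together in 1 alternative run. Peripheral W131AOTII replicate 2 had summed B cell markers of 2755 CPM against 172 to 590 CPM in the other peripheral libraries. Peripheral Cbl-b-/- OTII replicate 2 had 1.66% of its counts in ribosomal protein genes against 0.413% to 1.01% elsewhere. Thymic OTII replicate 3 had the heat shock gene Hspa1b at 113 CPM against 0.098 and 0.283 CPM in its group. Others also differed. Hspa1b was at 19.45 CPM in peripheral W131AOTII replicate 3, against 1.672 and 1.125 in its group. Summed red cell and platelet markers were at 24.86 CPM in thymic W131AOTII replicate 3, against 2.974 and 3.648 in its group. The labels name 3 OTII, 12 W131AOTII (4 a group), 3 Cbl-b-/- and 6 Cbl-b-/-W131AOTII (2 a group) mice. No source used here maps mice to libraries, so a p-value reflects only how far these libraries spread, which may be technical.

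Promoter sequence was taken from RefSeq windows on GRCm38.p6 that run from 250 bases before to 50 bases after a transcript start, and 25 of the 32 genes had a window. Acly, Cyp51, Insig1, Lss and Dhcr7 were among these, and Stard4, Scd1, Scd2, Abcg1, Fdps, Fdft1 and Sqle were not. The windows were searched on both strands for 3 motifs, none of which contains another: TCACNCCAC, a sterol regulatory element (SRE) like sequence bound by SREBP; CCAAT, bound by the NF-Y factor; and GGGCGG, the GC box of Sp1. The SRE-like sequence lay in 1 of the 25 genes, Hmgcs1, and in 1.40% of 10263 tested genes with a window. CCAAT lay in 20 of the 25 (80.0%) against 42.6% of those tested genes, and GGGCGG in 21 of the 25 (84.0%) against 66%. The windows of 3 genes that were called between periphery and thymus are shown with the only SRE-like match, because they let a reader see which of these motifs sit before genes of the same pathway that moved in opposite directions. Capitals mark every match to the 3 motifs, on either strand. They are Insig1 at chr5:28071162-28071461, Lss at chr10:76531355-76531654, Dhcr7 at chr7:143829964-143830263 (the last of its 3 annotated starts) and the SRE-like match of Hmgcs1 at chr13:119690202-119690234, which begins 137 bases before the start, all on the plus strand.
Insig1: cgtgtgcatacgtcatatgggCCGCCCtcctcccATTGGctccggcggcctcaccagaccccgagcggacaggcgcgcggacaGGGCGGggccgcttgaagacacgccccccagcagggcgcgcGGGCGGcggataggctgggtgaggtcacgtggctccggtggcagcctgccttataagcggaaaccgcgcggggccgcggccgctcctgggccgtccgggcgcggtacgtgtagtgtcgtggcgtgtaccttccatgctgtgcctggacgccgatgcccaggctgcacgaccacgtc
Lss: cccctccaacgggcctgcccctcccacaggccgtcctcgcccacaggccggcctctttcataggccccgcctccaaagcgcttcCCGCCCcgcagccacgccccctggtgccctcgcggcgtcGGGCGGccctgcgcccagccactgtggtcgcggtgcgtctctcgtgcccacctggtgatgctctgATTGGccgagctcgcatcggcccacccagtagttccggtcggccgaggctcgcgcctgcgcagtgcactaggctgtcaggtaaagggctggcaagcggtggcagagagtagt
Dhcr7: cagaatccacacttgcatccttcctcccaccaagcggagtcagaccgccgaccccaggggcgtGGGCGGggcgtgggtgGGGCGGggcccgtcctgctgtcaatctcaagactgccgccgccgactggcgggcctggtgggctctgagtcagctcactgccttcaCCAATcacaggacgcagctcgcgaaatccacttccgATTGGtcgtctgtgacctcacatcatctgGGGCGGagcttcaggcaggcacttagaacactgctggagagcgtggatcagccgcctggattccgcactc
Hmgcs1 SRE-like match: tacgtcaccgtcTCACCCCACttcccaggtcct
Insig1 and Lss, which were higher in the periphery, and Dhcr7, which was lower there, all held CCAAT and GGGCGG matches and no SRE-like match in the windows shown. The other 2 windows of Dhcr7 held no CCAAT match, and 1 and 0 GGGCGG matches, so for this gene the motifs depend on the start chosen. A match describes the letters only.

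Per kilobase of merged exons, the steady levels of the 32 genes differed widely. Acly, the enzyme that makes cytosolic acetyl-CoA from citrate, was the highest, with group means of 77.6 to 138 CPM per kilobase. Srebf2 (41.1 to 67.4), Srebf1 (36.7 to 56.3), Scd2 (23.4 to 89.7) and Ebp, a sterol isomerase (33.1 to 40.3), came next. Idi1, the isopentenyl diphosphate isomerase, was at 0.141 to 0.342 CPM per kilobase, Acaca, the acetyl-CoA carboxylase that makes malonyl-CoA, at 0.164 to 0.458, and Scd1 at 0.031 to 3.07. Of the 50-base words (the read length) of Idi1, 25.3% also occur in other genes, mostly Gm13502. For Acaca the share is 30.4%, so the levels of both genes are uncertain. The 18 mevalonate and sterol enzymes summed to 594 to 708 CPM in the group means, a narrow span, while the 6 fatty acid genes summed to 753 CPM (SD 30.2, n = 3) in peripheral Cbl-b-/-W131AOTII, 784 CPM (SD 14.7, n = 3) in peripheral Cbl-b-/- OTII, 1109 and 1131 CPM in the other peripheral groups, and 1166 and 1457 CPM in the thymic groups. In this sum the 6 Cbl-b-/- libraries (730 to 796 CPM) lay below all 12 others (836 to 1670 CPM). Those 12 include the thymic libraries, which have no Cbl-b-/- counterpart. The sum mostly reflects Acly, Fasn and Scd2, with 17630, 6215 and 4374 counts in peripheral OTII replicate 1 against 446 for Elovl6. It was not adjusted for the GC content of transcripts, which is taken up below.

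**Figure D1:**
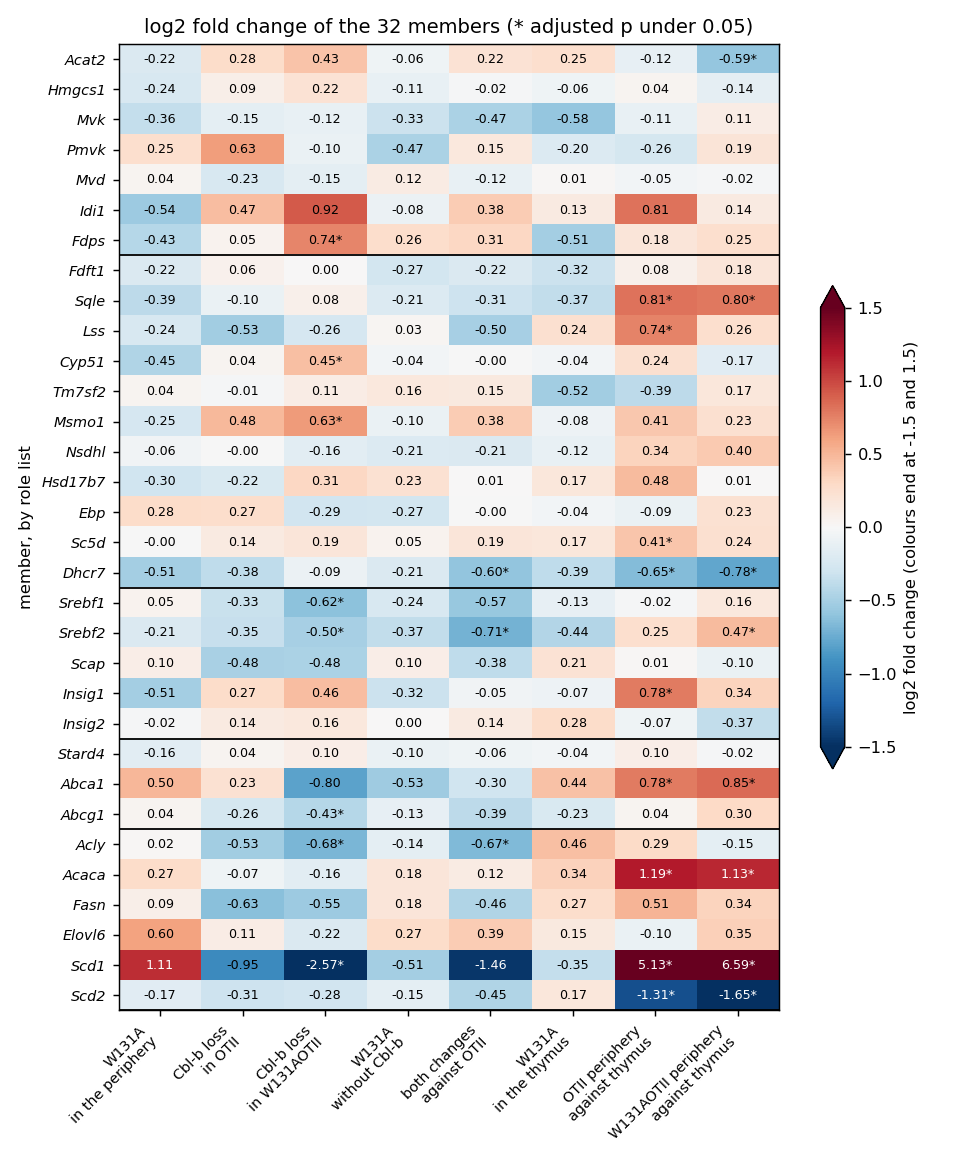
Log2 fold changes of the 32 genes (rows, by role) in 8 comparisons (columns), with an asterisk where the edgeR adjusted p was under 0.05 and colours ending at -1.5 and 1.5. Asterisks stand in 4 of the 8 columns, mostly in the 2 comparisons of periphery with thymus.

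Peripheral naive cells differed from thymocytes of the same genotype in a small group of these genes. In OTII cells 7 of the 32 genes rose and 2 fell in the periphery, that is 28.1% of them against 18.3% of all genes tested, and in W131AOTII cells 5 rose and 3 fell, 25.0% against 19.2%. Of all genes, 7.75% rose and 10.6% fell in OTII and 8.07% and 11.2% in W131AOTII. The median log2 fold change was 0.14 over the 32 genes in OTII and 0.19 in W131AOTII, against -0.01 and -0.02 over all genes. These comparisons share no library, and 6 genes were called in both: Sqle, Acaca, Scd1 and Abca1 rose, and Dhcr7 and Scd2 fell, in each genotype. Calls shared by both genotypes were not counted over all genes, so this overlap cannot be set against a background. Over all 32 genes the sign was the same in 21 (65.6%), against 68.8% of all genes. Libraries did not overlap and were higher in the OTII periphery for 13 of the 32 genes (40.6%, against 18.7% of all genes) and lower for 4 (12.5%, against 20.7%).

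The mevalonate arm, which runs from acetyl-CoA to farnesyl diphosphate, had few calls. None of its 7 genes was called in OTII with edgeR or DESeq2, and none was at an unadjusted p under 0.05. In W131AOTII only Acat2, a cytosolic thiolase at the head of the route, was called. Its CPM was 14.6, 14.5 and 16.7 in the periphery and 26.7, 19.3 and 22.8 in the thymus, so that the peripheral libraries lay below all thymic ones, and it fell by 0.59 on the log2 scale (SE 0.16, adjusted p = 0.013). The call was lost without peripheral replicate 1 or 2 or thymic replicate 1 (adjusted p up to 0.069). In addition, 39.1% of the 50-base words of Acat2 also occur in another gene, nearly all in Acat3, so the split of reads between these copies is uncertain.

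Sqle, the squalene epoxidase that commits squalene to sterols, was the sterol enzyme with the smallest adjusted p. It stood at 62.5, 67.3 and 64.5 CPM in peripheral OTII and at 35.7, 39.5 and 35.4 in thymic OTII. W131AOTII cells had 53.2, 51.0 and 44.3 CPM in the periphery and 28.5, 28.2 and 28.8 in the thymus. Every peripheral library was above every thymic library of its genotype. The rise was 1.76-fold in OTII (log2 fold change 0.81, SE 0.13, adjusted p = 0.00019) and 1.74-fold in W131AOTII (log2 fold change 0.80, SE 0.13, adjusted p = 0.00022). Lss, the lanosterol synthase that closes the ring, was at 42.3, 40.8 and 43.4 CPM in peripheral OTII and at 17.9, 31.5 and 26.1 in thymic OTII, with no overlap, and rose 1.67-fold (adjusted p = 0.0035). In W131AOTII its log2 fold change was 0.26 and not called. Sc5d, a desaturase of a late step, rose by 0.41 on the log2 scale in OTII (adjusted p = 0.038), a call that was lost without any 1 of the 6 libraries (adjusted p 0.055 to 0.18).

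Dhcr7, the reductase that makes cholesterol from 7-dehydrocholesterol, went the other way. Its CPM was 71.8, 86.5 and 89.9 in peripheral OTII and 123, 140.1 and 127 in thymic OTII. For W131AOTII the values were 52.5, 48.0 and 73.6 in the periphery and 114, 75.3 and 109 in the thymus. No peripheral library reached a thymic library of its genotype. Dhcr7 fell by 0.65 (SE 0.17, adjusted p = 0.0087) and by 0.78 (SE 0.17, adjusted p = 0.0022) on the log2 scale. The other 8 sterol enzymes apart from Sqle, Lss and Dhcr7 had log2 fold changes of -0.39 to 0.48 in OTII.

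Among the genes that control SREBP, Insig1, a SREBP target that retains SCAP, was at 22.1, 18.4 and 21.9 CPM in peripheral OTII and at 12.4, 12.2 and 11.9 in thymic OTII. It rose 1.71-fold there (log2 fold change 0.78, SE 0.20, adjusted p = 0.011) and had a log2 fold change of 0.34 in W131AOTII that was not called. Srebf2 itself, the factor most tied to cholesterol genes, rose by 0.47 in W131AOTII and was at 0.25, not called, in OTII. The W131AOTII call was lost without peripheral replicate 2 or 3 or thymic replicate 2 or 3 (adjusted p 0.056 to 0.14). Srebf1, Scap and Insig2 were called in neither genotype. Of the transporters, Abca1, which exports cholesterol from the cell, rose by 0.78 in OTII (adjusted p = 0.036) and 0.85 in W131AOTII (adjusted p = 0.022). The OTII call was lost without peripheral replicate 2 or 3 or thymic replicate 1 or 3 (adjusted p up to 0.19), and the W131AOTII call without peripheral replicate 3 or thymic replicate 1 or 2 (adjusted p up to 0.098). Stard4, a sterol carrier, and Abcg1, another exporter, were not called.

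Scd1, Scd2 and Acaca, all of the fatty acid route, had the 3 largest log2 fold changes among the 32 genes in both genotypes. Scd2 and Scd1 encode stearoyl-CoA desaturases that place a double bond in saturated fatty acids, and lie on the same chromosome, Scd2 at chr19:44293674-44306864 and Scd1 at chr19:44394455-44407879 (GRCm38). Scd2 was at 146, 177 and 203 CPM in peripheral OTII and at 371, 519 and 419 in thymic OTII. In W131AOTII it was at 164, 134 and 169 CPM against 469, 462 and 539. The groups were far from overlapping, and Scd2 fell 2.49-fold in the OTII periphery (log2 fold change -1.31, SE 0.15, adjusted p = 5.5e-06) and 3.15-fold in the W131AOTII periphery (log2 fold change -1.65, SE 0.16, adjusted p = 4.4e-07). Acaca stood at 5.57, 6.05 and 7.78 CPM in peripheral OTII and 1.60, 3.44 and 3.38 in thymic OTII, and at 7.79, 8.74 and 6.94 against 3.82, 3.02 and 3.93 CPM in W131AOTII. It rose 2.29-fold and 2.18-fold (adjusted p = 0.0034 and 0.0042). Since 30.4% of the 50-base words of Acaca also occur elsewhere, mostly in Gm5182, these counts are uncertain. Fasn, the fatty acid synthase, Elovl6, an elongase, and Acly were called in neither genotype.

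**Figure D2:**
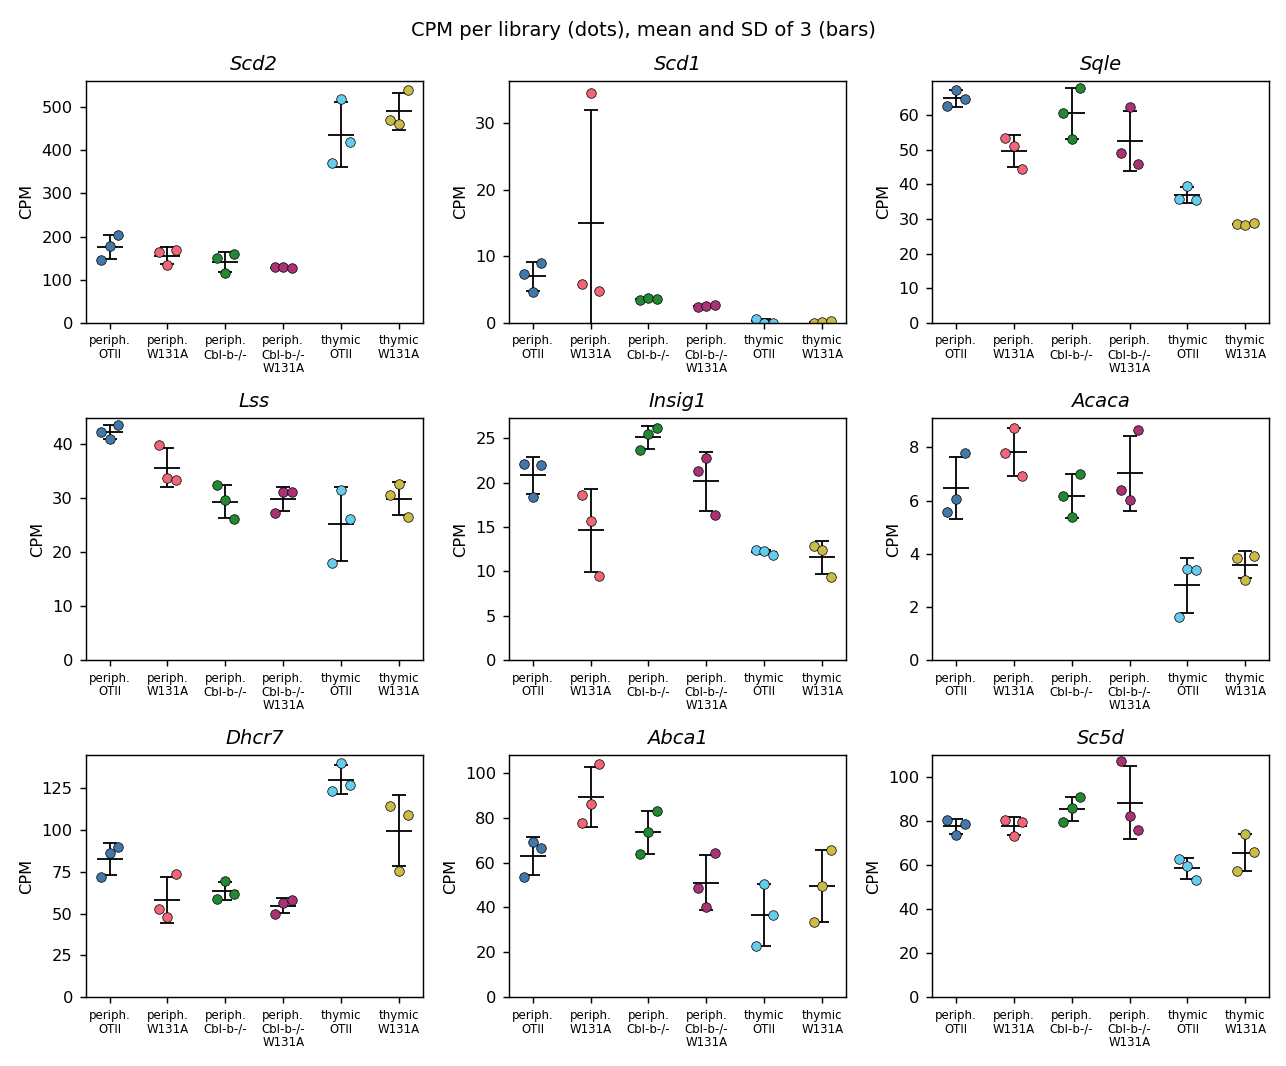
CPM of 9 genes (panels) in each library (dots), with the mean and SD of 3 libraries as bars, for the 6 groups. Scd2 and Dhcr7 are higher in the thymic groups, and the other 7 genes are higher in the peripheral OTII group than in the thymic OTII group; for Scd1 the SD of peripheral W131AOTII is set by replicate 2 at 34.5 CPM and its bar runs below the axis.

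Scd1 rose with markers of another cell type. Its CPM was 7.34, 4.58 and 8.97 in peripheral OTII and 5.75, 34.5 and 4.84 in peripheral W131AOTII. In the thymus it was nearly absent, with 12, 1 and 1 counts in OTII and 1, 6 and 6 counts in W131AOTII. The log2 fold change was 5.13 in OTII (SE 0.81, adjusted p = 0.00015) and 6.59 in W131AOTII (SE 0.83, adjusted p = 1.2e-05). Without thymic OTII replicate 1 it was 7.37, and without peripheral W131AOTII replicate 2 it was 5.11. Summed over 10 B cell markers, the level was 483 to 535 CPM in peripheral OTII and 370 to 2755 in peripheral W131AOTII, against 48.7 to 96.1 in the thymic libraries, and 9 of the 10 markers rose in OTII and 10 of 10 in W131AOTII. The library with the highest Scd1, peripheral W131AOTII replicate 2, was also the one with the highest B cell sum. Within peripheral OTII, however, replicate 2 had the highest B cell sum, 535 CPM, and the lowest Scd1, 4.58 CPM. In peripheral Cbl-b-/- OTII the B cell sum was 353 to 590 CPM, and Scd1 had a log2 fold change of -0.95 against OTII, not called. The part of B cell transcripts in the Scd1 result was not tested.

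**Figure D3:**
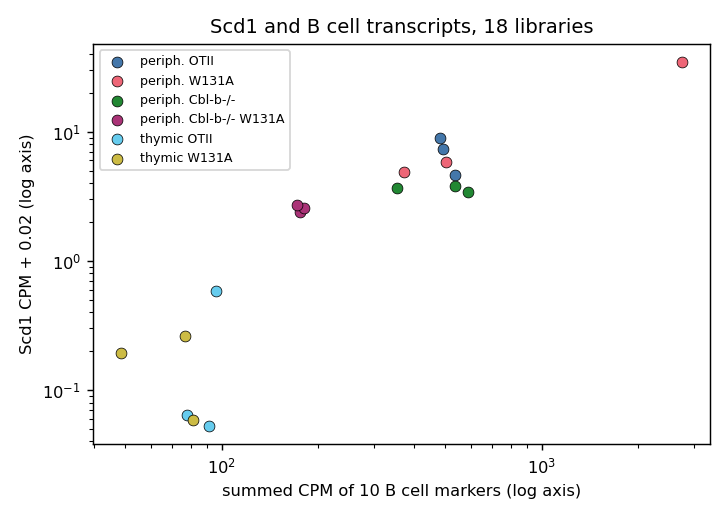
Scd1 CPM plus 0.02 (vertical, log axis) against the summed CPM of 10 B cell markers (horizontal, log axis), 1 point per library, coloured by group. The 6 thymic libraries lie lowest on both axes and peripheral W131AOTII replicate 2 lies highest on both, at 34.5 CPM and 2755 CPM.

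Other programmes also moved with the tissue. Of 18 proliferation genes 14 fell in the OTII periphery and 16 in the W131AOTII periphery, and their summed level was 490.1 to 557 CPM in peripheral OTII, 525 to 624 in peripheral W131AOTII, 737 to 1280 in thymic OTII and 784 to 2138 in thymic W131AOTII. Summed markers of immature thymocytes were at 237 to 401 CPM in those peripheral libraries and 888 to 1487 in the thymic ones. Their part in the differences of the lipid genes was not tested. In bulk samples of this kind, fewer cells of a type and less RNA per cell cannot be told apart.

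Loss of Cbl-b, the comparison closest to the question of the series, gave calls in W131AOTII cells and none in OTII cells. The test of the difference between these comparisons called none of the 32 genes with edgeR, so the calls are not shown to be particular to W131AOTII. In W131AOTII 3 of the 32 genes rose and 5 fell, 25.0% of them against 9.25% of all genes tested, of which 3.18% rose and 6.08% fell. The risers were enzymes of cholesterol synthesis, Msmo1, Cyp51 and Fdps, and those that fell were Srebf1, Srebf2, Acly, Scd1 and Abcg1. Over the 18 mevalonate and sterol enzymes the median log2 fold change was 0.10, with 11 above 0, and over the 6 fatty acid genes it was -0.42 with all 6 below 0. The median was -0.11 over the 32 genes and 0.03 over all genes. Libraries without Cbl-b lay above all those with it for 5 of the 32 genes (15.6%, against 19.6% of all genes) and below them for 11 (34.4%, against 20.3%).

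Msmo1, a sterol methyl oxidase that removes methyl groups from lanosterol products, was at 55.5, 54.2 and 48.2 CPM in peripheral W131AOTII and at 89.0, 90.3 and 65.8 in Cbl-b-/-W131AOTII. The groups did not overlap, and Msmo1 rose 1.55-fold (log2 fold change 0.63, SE 0.15, adjusted p = 0.019). Cyp51, the lanosterol demethylase, was at 47.7, 42.2 and 35.8 CPM against 64.4, 55.9 and 51.3, and rose 1.37-fold (adjusted p = 0.038). Fdps, the farnesyl diphosphate synthase, was at 6.77, 5.66 and 5.67 CPM against 9.14, 10.7 and 10.4, and rose 1.67-fold (adjusted p = 0.044). For Fdps, 26.2% of its 50-base words are shared, mostly with the overlapping Gm43738, so its count is uncertain. In each of these genes the lowest library without Cbl-b was above the highest with it.

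Srebf1, the factor more tied to fatty acid genes, was at 311, 318 and 323 CPM in W131AOTII and at 177, 209.5 and 233 in Cbl-b-/-W131AOTII, and fell by 0.62 (SE 0.18, adjusted p = 0.035). Srebf2 was at 402, 435 and 415 CPM against 266, 309.9 and 310.3, and fell by 0.50 (SE 0.15, adjusted p = 0.047). Acly was at 639, 607 and 731 CPM against 416, 409 and 405, and fell by 0.68 (SE 0.20, adjusted p = 0.037). Each of these groups lay wholly below the other. Abcg1 fell by 0.43 (adjusted p = 0.048), and Abca1 was at 77.7, 86.2 and 104 CPM against 48.9, 40.0 and 64.3, a log2 fold change of -0.80 with an adjusted p of 0.0504. Scd1 fell by 2.57 (SE 0.62, adjusted p = 0.020), from 5.75, 34.5 and 4.84 to 2.37, 2.54 and 2.68 CPM, together with all 10 B cell markers, whose sum went from 370 to 2755 CPM down to 172 to 181 CPM. Of 11 myeloid and dendritic cell markers 6 also fell, with sums of 78.8 to 193.6 CPM in W131AOTII and 68.3 to 74.3 CPM in Cbl-b-/-W131AOTII. The part of transcripts of either cell type in these results was not tested. Without peripheral W131AOTII replicate 2 the log2 fold change of Scd1 was -1.08 (adjusted p = 0.21).

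**Figure D4:**
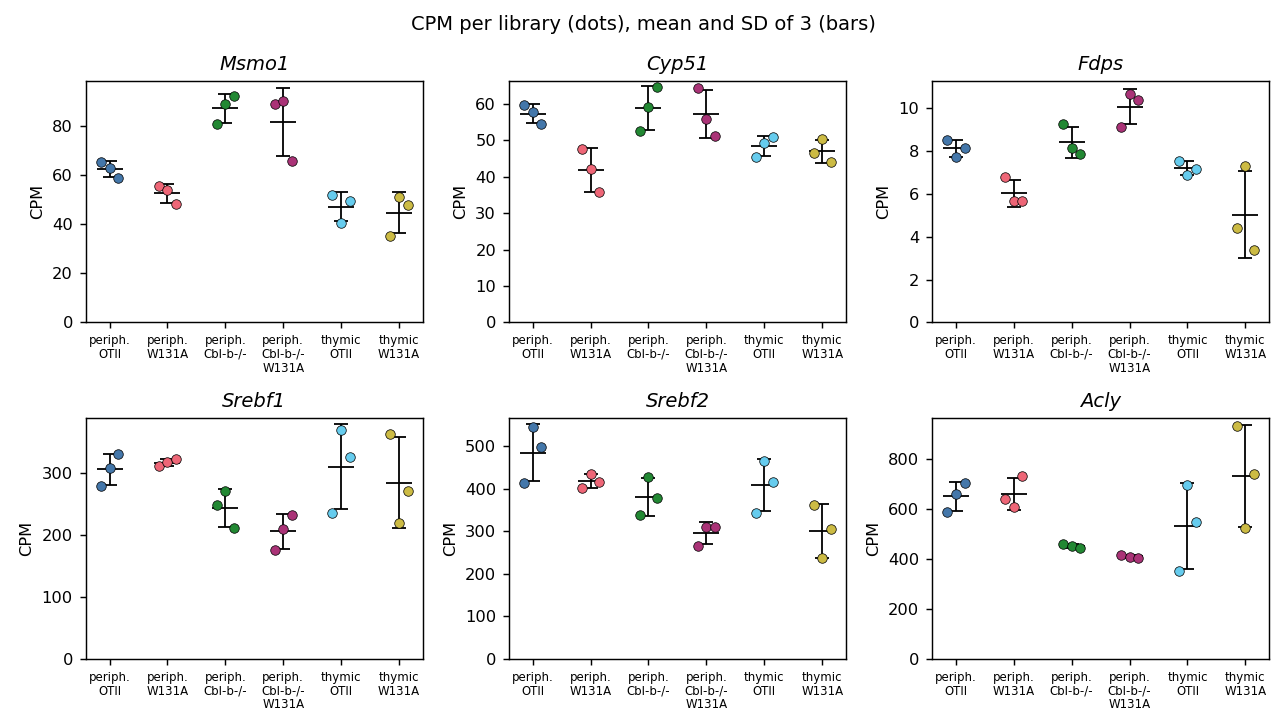
CPM of 6 genes (panels) in each library (dots), with the mean and SD of 3 libraries as bars, for the 6 groups. Msmo1, Cyp51 and Fdps are higher, and Srebf1, Srebf2 and Acly lower, in peripheral Cbl-b-/-W131AOTII than in peripheral W131AOTII with no overlap.

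None of these 8 calls held in all 15 alternative analyses, although none changed direction. No member was called without W131AOTII replicate 2 or Cbl-b-/-W131AOTII replicate 1 or 2, 1 was called without W131AOTII replicate 3, 4 without Cbl-b-/-W131AOTII replicate 3 and 6 without W131AOTII replicate 1. The GC content of the transcripts moved with this comparison: the Spearman correlation of GC content with the log2 fold change was -0.51 over the 32 genes and -0.40 over all genes, given as a description over genes that share the same libraries. With offsets for GC content and length, Msmo1 (0.55, adjusted p = 0.020), Cyp51 (0.39, adjusted p = 0.049), Fdps, Scd1 and Abca1 were called, 3 higher and 2 lower. Srebf1 was then at -0.27 (adjusted p = 0.058), Srebf2 at -0.13 (adjusted p = 0.42), Acly at -0.47 (adjusted p = 0.056) and Abcg1 at -0.17. Scaling by library size instead of TMM factors shifted the all-gene median from 0.03 to 0.18 and gave 4 members higher and 1 lower. The heat shock gene Hspa1b was at 25.5 to 130.3 CPM in the 6 peripheral Cbl-b-/- libraries and at 0.567 to 19.5 in the other 6 peripheral ones, and its part in these results was not tested.

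**Figure D5:**
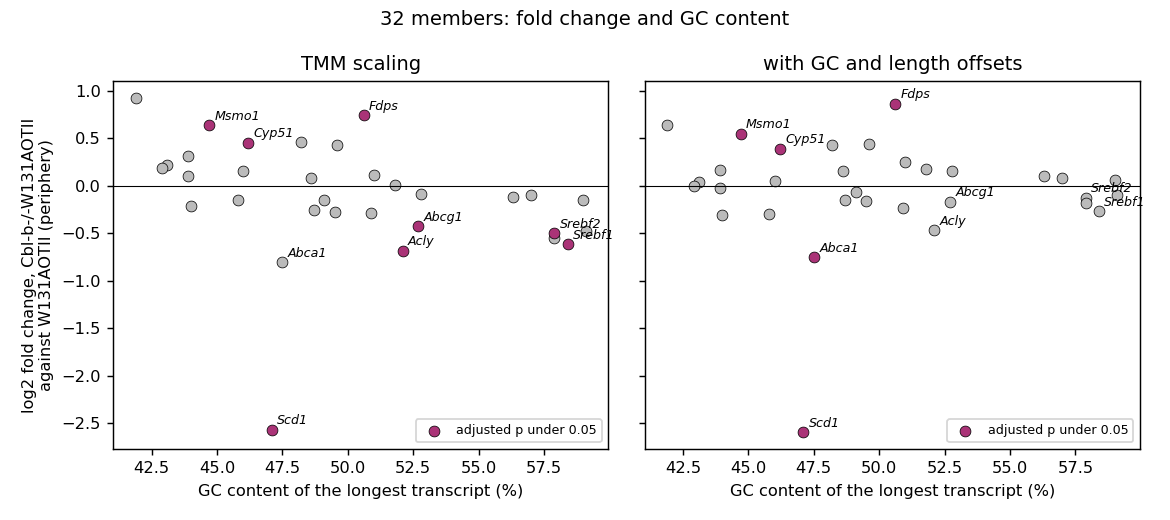
Log2 fold change on loss of Cbl-b in W131AOTII cells (vertical) against the GC content of the longest transcript in percent (horizontal) for the 32 genes, with TMM scaling (left) and with GC and length offsets (right). Coloured points had an adjusted p under 0.05; the left panel slopes down with a Spearman correlation of -0.51 and the right panel has -0.14.

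In OTII cells loss of Cbl-b gave no call among the 32 genes with edgeR, against 8.21% of all genes, and 2 with DESeq2, Lss and Msmo1. Of the 32 genes 8 had an unadjusted p under 0.05, against 3852 of all 15204 genes, a like share. Msmo1 was again above its comparison group in every library, at 80.9, 89.2 and 92.2 CPM against 65.4, 63.2 and 59.1, with a log2 fold change of 0.48 and an adjusted p of 0.052. Cyp51 and Fdps, which also rose in W131AOTII, had log2 fold changes of only 0.038 (adjusted p = 0.89) and 0.047 (adjusted p = 0.92) in OTII. Lss was at 32.3, 29.6 and 26.1 CPM against 42.3, 40.8 and 43.4 (log2 fold change -0.53, adjusted p = 0.055). Acly was at 459, 451 and 445 CPM against 588, 661 and 703 (log2 fold change -0.53, adjusted p = 0.098), again without overlap. GC content moved with this comparison too, with a Spearman correlation of -0.48 over the 32 genes and -0.27 over all genes. With GC and length offsets Lss was at -0.27 (adjusted p = 0.31), Acly at -0.29 (adjusted p = 0.27) and Msmo1 at 0.51 (adjusted p = 0.029). The Cbl-b comparisons in OTII and W131AOTII share no library, and the sign was the same in 25 of 32 genes (78.1%) against 65.6% of all genes. Both carried the GC trend, and its part in this sharing of signs was not tested. The test of the difference between the Cbl-b comparisons in OTII and W131AOTII, the interaction of W131A and Cbl-b loss, called none of the 32 with edgeR, against 0.631% of all genes, and none with DESeq2. In it 5 of the 32 genes had an unadjusted p under 0.05, against 1871 of all 15204 genes. The smallest p in that test was that of Abca1, at a log2 difference of -1.03 (SE 0.36, adjusted p = 0.26).

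Cells with both changes were compared with plain OTII cells. Dhcr7, Srebf2 and Acly fell, 9.38% of the 32 genes against 7.39% of all genes called and 3.52% that fell, and none rose. Srebf2 was at 412, 544 and 497 CPM in OTII and 266, 309.9 and 310.3 in Cbl-b-/-W131AOTII, without overlap, and fell by 0.71 (SE 0.15, adjusted p = 0.0084). Dhcr7, at 71.8, 86.5 and 89.9 CPM against 49.8, 56.1 and 58.2, fell by 0.60 (SE 0.17, adjusted p = 0.036), and Acly by 0.67 (SE 0.20, adjusted p = 0.046). No member was called without OTII replicate 2 or Cbl-b-/-W131AOTII replicate 1, and 1 was called without OTII replicate 3 or Cbl-b-/-W131AOTII replicate 2 or 3. Without OTII replicate 2 the adjusted p of Srebf2 was 0.062, and with GC and length offsets its log2 fold change was -0.39 (adjusted p = 0.014). With these offsets the calls of Dhcr7 (-0.38, adjusted p = 0.087) and Acly (-0.48, adjusted p = 0.055) were lost, and that of Acly was also lost with library size scaling (adjusted p = 0.059) and with the replicate block (adjusted p = 0.064). This comparison shares its OTII libraries with the one on loss of Cbl-b in OTII, and its Cbl-b-/-W131AOTII libraries with the one on loss of Cbl-b in W131AOTII, so the calls of Srebf2 and Acly in it and in the latter are not separate evidence. All 4 markers of regulatory T cells rose, from a sum of 63.8 to 67.9 CPM to 249.8 to 309.8 CPM, and their part in these results was not tested.

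The W131A substitution alone gave no call among the 32 genes in the periphery with edgeR, against 1.93% of all genes, and 1, Cyp51, with DESeq2. With GC and length offsets Dhcr7 was called (log2 fold change -0.54, adjusted p = 0.031). Of the 32 genes 5 had an unadjusted p under 0.05 without offsets, against 1411 of all 15204 genes. The enzymes of cholesterol synthesis lay mostly below 0: 5 of 7 in the mevalonate arm and 9 of 11 in the sterol arm, each with a median log2 fold change of -0.24, against 50.3% of all genes below 0. In the same comparison all 4 markers of regulatory T cells rose, with sums of 63.8 to 67.9 CPM in OTII and 245 to 262 CPM in W131AOTII. The 10 B cell markers were all above 0, 8 of them at an unadjusted p under 0.05 and none called with edgeR. The part of transcripts of these cell types in the lipid gene values was not tested. Cyp51 was at 47.7, 42.2 and 35.8 CPM in W131AOTII against 59.6, 57.8 and 54.4 in OTII (log2 fold change -0.45, SE 0.13, adjusted p = 0.098), and Sqle at 53.2, 51.0 and 44.3 against 62.5, 67.3 and 64.5 (log2 fold change -0.39, adjusted p = 0.20). Both were lower in every W131AOTII library than in any OTII library. The same W131AOTII libraries serve in the comparison on loss of Cbl-b, so the lower Cyp51 here and its rise there are not separate evidence. In contrast, 5 of 6 fatty acid genes were above 0, and Elovl6 was at 26.3, 19.7 and 27.7 CPM against 14.9, 17.5 and 16.1 (log2 fold change 0.60, SE 0.19, adjusted p = 0.14). Libraries did not overlap and were lower in W131AOTII for 6 of the 32 genes (18.8%, against 8.54% of all genes) and higher for 2 (6.25%, against 10.7%).

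In thymocytes W131A gave no call among the 32 genes with edgeR or DESeq2, against 2.77% of all genes. Of the 32 genes 8 had an unadjusted p under 0.05, against 2500 of all 15204 genes. Sqle was at 28.5, 28.2 and 28.8 CPM in W131AOTII against 35.7, 39.5 and 35.4 in OTII (log2 fold change -0.37, SE 0.13, adjusted p = 0.16). Mvk, the mevalonate kinase, was at 17.6, 12.1 and 13.7 CPM against 19.9, 25.1 and 19.9 (log2 fold change -0.58, adjusted p = 0.16). Neither gene overlapped between the groups, and in all 6 of the 32 genes were lower and 0 higher without overlap, against 8.4% and 8.57% of all genes. The W131A comparisons in periphery and thymus share no library, and the sign was the same in 19 of 32 genes (59.4%) against 53.6% of all genes. The test of the difference between them called none of the 32 with edgeR or DESeq2, against 0.381% of all genes. In it 1 gene, Cyp51, had an unadjusted p under 0.05, against 1448 of all 15204 genes. With GC and length offsets the W131A comparison in the thymus called Sqle (log2 fold change -0.515, adjusted p = 0.016), Dhcr7 (-0.50, adjusted p = 0.036) and Srebf2 (-0.52, adjusted p = 0.0023).

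In cells that lack Cbl-b, W131A gave no call among the 32 genes with edgeR or DESeq2, against 1.89% of all genes. Of the 32 genes 3 had an unadjusted p under 0.05, against 2601 of all 15204 genes. Srebf2 was at 266, 309.9 and 310.3 CPM in Cbl-b-/-W131AOTII against 338, 427 and 378 in Cbl-b-/- OTII, without overlap (log2 fold change -0.37, SE 0.15, adjusted p = 0.22). With GC and length offsets Srebf2 (-0.46, adjusted p = 0.0061) and Srebf1 (-0.32, adjusted p = 0.036) were called.

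Genes around the pathway were counted in the same way, and their shares called lay near those of all genes. Between periphery and thymus, 21.4% of other sterol genes, 19.4% of other fatty acid and lipid synthesis genes and 19.0% of fatty acid oxidation genes were called in OTII, against 18.3% of all genes, and 21.4%, 16.1% and 14.3% in W131AOTII, against 19.2%. Of 28 other sterol genes 4 rose and 2 fell in the OTII periphery and 3 rose and 3 fell in the W131AOTII periphery. Lbr, a lamina protein that also has sterol reductase activity, rose by 0.66 and Nceh1, a cholesterol ester hydrolase, by 0.52 in OTII. Soat1, which stores cholesterol as esters, fell by 0.86 in W131AOTII. Of 31 other fatty acid and lipid synthesis genes 2 rose and 4 fell in OTII and 1 rose and 4 fell in W131AOTII. Acsl1, which activates fatty acids, rose by 1.45 (adjusted p = 1.0e-06) and 0.80 (adjusted p = 0.00050). Fads2, a desaturase of polyunsaturated fatty acids, had 3 counts summed over the 3 peripheral OTII libraries and 285 over the thymic ones, and 6 against 132 in W131AOTII. Hacd1, a dehydratase of chain elongation, had 4 against 68 and 5 against 51. Of 21 fatty acid oxidation genes 4 rose in OTII and 3 in W131AOTII and none fell, with Acadl, an acyl-CoA dehydrogenase, at 0.59 and 0.51 and Eci1, an enoyl-CoA isomerase, at 0.78 and 0.63.

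On loss of Cbl-b the shares called in these lists were 3.57%, 12.9% and 4.76% in OTII, against 8.21% of all genes, and 7.14%, 12.9% and 9.52% in W131AOTII, against 9.25%. In OTII 1 of the 28 other sterol genes fell, Osbp, a sterol exchange protein, and 4 of 31 other fatty acid and lipid genes fell, among them Fads1, a desaturase, by 0.70, and Lpcat3, a phospholipid acyltransferase, by 0.60. In W131AOTII 2 of 28 and 4 of 31 fell, with Lpcat3 at -0.46 and Agpat3, an acyltransferase, at -0.51. Echs1, an enoyl-CoA hydratase of fatty acid oxidation, rose by 0.54 in OTII and 0.53 in W131AOTII. Cpt1a, which admits fatty acids to mitochondria, was at 171, 257 and 334 CPM in peripheral W131AOTII and 85.6, 91.1 and 142 in Cbl-b-/-W131AOTII, and fell by 1.26 (SE 0.26, adjusted p = 0.010). These calls on loss of Cbl-b come from the fit without GC and length offsets, and both comparisons carried the GC trend given above. Across the W131A comparison in the thymus, where 2.77% of all genes were called, 1 gene of each list was called (3.57%, 3.23% and 4.76%): Soat1 rose by 0.59, Acsl1 by 0.57 and Cpt1a by 1.15 (adjusted p = 0.020). No gene of these 3 lists was called for W131A in the periphery with edgeR, and DESeq2 called 0, 1 and 0. There 2 of 28, 3 of 31 and 2 of 21 had an unadjusted p under 0.05, against 1411 of all 15204 genes.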

How the data were processed

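Raw read counts per Ensembl gene were used as deposited by the authors, 1 column per library. Reads were single-end, 50 bases, from a HiSeq 4000, per the labels' protocols. STAR 2.7.2, GRCm38 and DESeq2 are named in the submitters' processing notes; no source used here gives the counting step, strand setting or filters, so reads of overlapping, antisense or near-identical genes cannot be told apart. All 55536 identifiers matched GENCODE M21.

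A single model of all 18 libraries was fitted with edgeR 4.0.16 (R 4.3.3; filterByExpr, TMM factors, robust quasi-likelihood F test, 12 residual degrees of freedom), adjusted by Benjamini-Hochberg over 15204 genes at a threshold of 0.05 in each of 10 contrasts, 2 of which are differences between effects. A gene was called, and is said to have risen or fallen, when its adjusted p was under 0.05. SE comes from the same fit, CPM uses TMM-scaled library sizes, and levels between genes are CPM per kilobase of merged exons. On simulated data made for W131A in the periphery (14831 genes, 200 changed), 73% of genes changed by 1 on the log2 scale and 98% of those changed by 2 were called. Apart from the changed genes, the simulated means were the same in every group, with no GC trend and no libraries that stood apart. These rates therefore do not carry over to smaller changes or to the real libraries.

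All 32 members could be named; of other pathway lists, up to 3 genes per comparison and direction with the smallest adjusted p, with Fads2 and Hacd1 given by counts where named. The members and lists were chosen with earlier results of these data known. DESeq2 1.42.0, RLE factors, library size only, no count filter, only the groups compared, a replicate block, GC and length offsets (natural splines with 5 degrees of freedom) and leaving out libraries were tried.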

Additional observations from a re-analysis of the deposited data

How the results depend on the processing

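No call among the 32 genes changed direction in any alternative run. Sqle, Dhcr7, Acaca, Scd1 and Scd2 kept their calls between periphery and thymus in both genotypes in all 15 alternatives, as did Lss and Insig1 in OTII. Counts of members called that moved by more than 1.5 times, and some that moved less, were as follows.

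Without the count filter they were 1 for W131A in the periphery, 5 for Cbl-b loss in OTII, 7 for both changes against OTII and 2 for the interaction. With DESeq2 they were 1, 2 and 7 for the first 3 of these, and with only the groups compared 4, 3 and 12. For Cbl-b loss in W131AOTII, where 8 were called, DESeq2 gave 10, only the groups compared 11 and library size alone 5. GC and length offsets gave 1 for W131A in the periphery, 2 for Cbl-b loss in OTII, 5 for Cbl-b loss in W131AOTII, 2 for W131A without Cbl-b, 1 for both changes, 3 for W131A in the thymus, and 11 and 12 between periphery and thymus in OTII and W131AOTII, where 9 and 8 were called. The replicate block gave 3 for Cbl-b loss in W131AOTII. The replicate block with these offsets gave 1, 2, 3, 2, 1 and 3 in the order of the first 6 of these, and 1 for the interaction. Without the 3 libraries left out together, an alternative chosen after seeing the data, the count was 1 for W131A in the periphery and 0 for Cbl-b loss in W131AOTII.

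Leaving out 1 library at a time gave 0 to 1 for W131A in the periphery, 0 to 1 for Cbl-b loss in OTII, 0 to 6 for Cbl-b loss in W131AOTII, 0 to 4 for both changes, 0 to 1 for W131A in the thymus, 7 to 9 for OTII and 6 to 8 for W131AOTII between periphery and thymus, and 0 for the remaining comparisons. Libraries of different groups shared only a replicate number, and the correlations of same-numbered deviations from the group means ran from -0.30 to 0.21, so not every library correlated best with its own number. The causes were not tested. With 3 libraries a group, small differences were not detectable, and Idi1, with 37 to 103 counts summed over a group, and thymic Scd1, with 13 or 14, were the least precisely measured.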

Other observations

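Within groups, the mevalonate and sterol enzymes did not move as 1 block. Each library's deviation from its group mean was taken on the log2 CPM scale, and each enzyme was correlated with the mean deviation of the other enzymes over the 18 libraries, with libraries that differ in depth within groups. The median Pearson correlation was 0.073, against 0.0555 for all tested genes with the mean of the 18 enzymes. Fdft1, the squalene synthase (0.68), Mvk (0.58) and Cyp51 (0.54) stood highest among the enzymes, and Insig1, a SREBP target outside the 18, was at 0.68. Fdft1 shares 26.5% of its 50-base words with other genes, mostly Ctsb. Outside the pathway the highest correlations were those of Cd160 (0.87), Glipr2 (0.84), Tmod1 (0.82), Smr3a (0.82) and Tmem218 (0.82), followed by Lrp5 (0.82), Cpq (0.80) and Slc27a6 (0.80). These are the upper end of the protein-coding part of 15204 genes, and Smr3a and Tmod1 had mean levels of 0.159 and 0.289 CPM.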
